A study of Mus musculus with 12 samples.

Results

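The genes described here encode the motors that walk along microtubules and the subunits that go with them. They are the kinesins (symbols Kif followed by a number), the kinesin light chains (Klc), the subunits of cytoplasmic dynein (Dync and Dynl) and the subunits of its cofactor dynactin (Dctn). They were chosen by symbol, as the probe sets with a single gene symbol of one of these forms, which gave 141 of 45101 probe sets and 59 of 18193 named genes. Of these 59 genes, 51 had enough signal to be tested, among 12280 genes tested in all. By role they fall into 12 mitotic kinesins, 14 axonal transport kinesins and light chains, 10 genes of cytoplasmic dynein 1 and its shared light chains, 6 dynactin genes, 8 genes of dynein 2 or linked to cilia, and 9 other kinesins.

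RNA was measured on 12 Affymetrix mouse arrays in 4 groups of 3 arrays: CAG150 cells at day 6 of neuronal differentiation, CAG150 cells at day 4, HM1 cells at day 6 and HM1 cells at day 4. HM1, derived from mouse embryonic stem cells of a male, has no working Hprt. CAG150 embryonic stem cells carry expanded CAG repeats, as far as the study is known in Htt, the gene of Huntington's disease. Groups follow the sample titles; the descriptions give HM1 at day 6 the earlier day and give every day 6 sample the same replicate number. Each kind of cell is represented by 1 line. The labels do not say that samples came from separate cultures, so the p-values rest on the spread between samples, which may be technical.

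Kinesins use ATP to move along microtubules, most of them towards the plus end, and cytoplasmic dynein moves towards the minus end with dynactin as its cofactor. In axons, where the plus ends point away from the cell body, kinesins therefore carry vesicles and mitochondria outwards and dynein carries cargo back. Another set of kinesins builds the spindle, moves chromosomes and completes cytokinesis, and these are found in dividing cells, such as the progenitors that precede neurons.

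The cultures changed in marker genes between the days. Values are intensities on a linear scale, and a difference is a difference of log2(intensity + 16) fitted with limma, given with its standard error (±). A gene passed, and is said to have risen or fallen, at a Benjamini-Hochberg adjusted p under 0.05 over all 12280 genes. All 9 neuron markers passed the filter on dim genes. Their sum was 9462 to 10289 at day 6 against 1791 to 2025 at day 4 in CAG150 cells, and 6194 to 7343 at day 6 against 2989 to 3271 at day 4 in HM1 cells. The sum over 6 neural progenitor markers was 14189 to 14550 at day 6 against 7573 to 7810 at day 4 in CAG150 cells, and 12445 to 13037 against 5805 to 6760 in HM1 cells. The sum over 6 fibroblast and smooth muscle markers was 209 to 257 in CAG150 cells against 4476 to 5415 in HM1 cells at day 6, and 314 to 378 against 2865 to 3395 at day 4. The sum over 5 pluripotent cell markers was 830 to 918 in CAG150 cells against 2043 to 2362 in HM1 cells at day 6, and 453 to 502 against 1410 to 1607 at day 4. Of 6 glial markers 2 passed that filter, of 6 blood and endothelial markers 1 did, and of 6 endoderm markers 4 did. The sum over the 6 endoderm markers was 110 to 124 at day 6 against 46.0 to 50.2 at day 4 in CAG150 cells, and 159 to 195.0 against 51.8 to 105 in HM1 cells. Of the 4 tested 2 rose between the days in CAG150 cells and 3 in HM1 cells. That is 50% and 75%, against 22.5% and 20.4% of all genes. In CAG150 cells 2 were lower than in HM1 cells at day 6 and 1 at day 4, 50% and 25% against 11.2% and 7.92%. Their part in the results below was not tested. In these bulk samples a change in the number of cells of a type and a change in RNA per cell cannot be told apart.

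Between day 4 and day 6 10 of the 14 kinesins and light chains of axonal transport rose in each line, with Klc1, Kif5a, Kif5c and Kif21a changing most on the brightest probe set of each gene. Of the dynein 1 and dynactin subunits 7 of 10 and 5 of 6 rose in CAG150 cells, and 4 and 2 in HM1 cells. Mitotic kinesins made up 5 of the 7 members that fell in CAG150 cells and 2 of the 4 that fell in HM1 cells. In CAG150 cells 24 of 51 members were higher at day 6 and 7 were lower, which is 47.1% and 13.7%, against 22.5% and 21.9% of all genes tested (44.4% in either direction). In HM1 cells 16 were higher and 4 lower, 31.4% and 7.84%, against 20.4% and 18.5% of all genes (38.9% in either direction). With each array centred on its median, which moved the median of all genes to -0.10 in CAG150 cells and -0.11 in HM1 cells on the log2 scale, the split was 15 higher and 8 lower in CAG150 cells, 29.4% and 15.7%, against 16.1% and 28.3% of all genes. In HM1 cells it was 12 higher and 10 lower, 23.5% and 19.6%, against 14.3% and 25.1% of all genes. No array is shared between these 2 comparisons: 15 of the genes higher at day 6 passed in both, 62.5% of the CAG150 list and 93.75% of the HM1 list, and 3 of those lower did, 42.86% and 75.0%. Over all genes tested 67.9% of the CAG150 list and 75% of the HM1 list of higher genes passed in both, and 63.1% and 74.7% of the lists of lower genes.

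**Figure D1:**
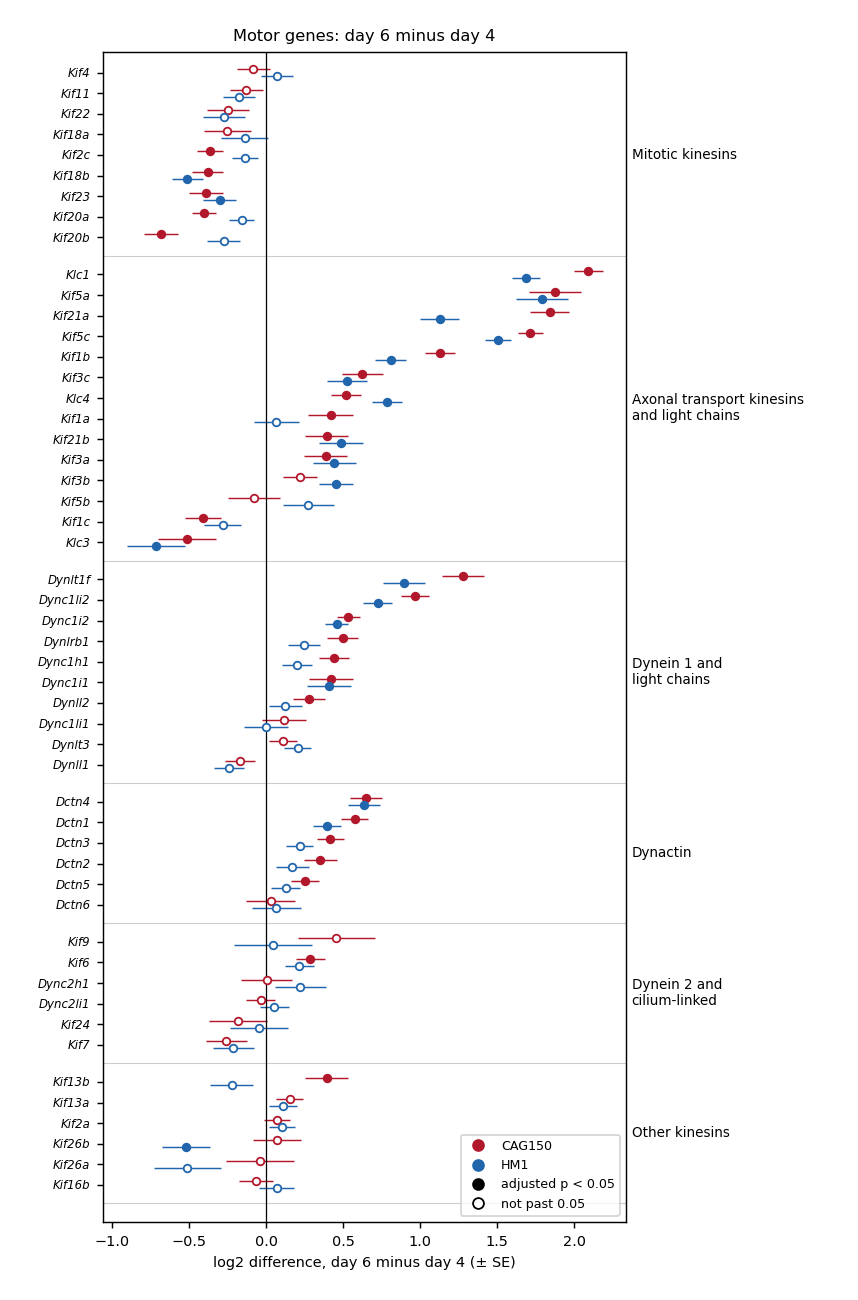
The 51 motor genes tested, by role, with the log2 difference of day 6 minus day 4 in CAG150 cells (red) and HM1 cells (blue). Bars are the standard error of limma's fit, and filled points have an adjusted p under 0.05. The axonal transport kinesins reach 2.09 for Klc1 in CAG150 cells, while 9 of 9 mitotic kinesins lie below 0 in CAG150 cells and 8 of 9 in HM1 cells.

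Kinesin-1, the motor of the Kif5 heavy chains and the Klc light chains that couple them to cargo, held the 2 members with the largest rises in each line on their brightest probe sets, Klc1 and Kif5a. Beside the 10 axonal transport kinesins and light chains that rose in each line, 2 fell in CAG150 cells and 1 in HM1 cells. The share that rose was 71.4% in each line, against 22.5% of all genes in CAG150 cells and 20.4% in HM1 cells. The share that fell was 14.3% and 7.14%, against 21.9% and 18.5%. With median centring 7 rose and 2 fell in CAG150 cells, 50% and 14.3% against 16.1% and 28.3% of all genes. In HM1 cells 8 then rose and 2 fell, 57.1% and 14.3% against 14.3% and 25.1%. The median difference over the 14 genes was 0.47 in CAG150 cells and 0.51 in HM1 cells, against 0.00027 and -0.0042 over all genes tested. Klc1 had intensities of 1313, 1548 and 1488 at day 6 and 341, 349 and 295 at day 4 in CAG150 cells. In HM1 cells Klc1 had 1114, 1015 and 1072 at day 6 and 320.2, 336 and 305 at day 4. In both lines every day 6 array lay far above every day 4 array, and the difference was 2.09 ± 0.093 (limma adjusted p 5.39e-09) in CAG150 cells and 1.69 ± 0.093 (limma adjusted p 4.49e-08) in HM1 cells. All 3 Klc1 probe sets passed in both lines, with differences of 0.30 to 2.09 in CAG150 cells and 0.43 to 1.69 in HM1 cells, so the size depends on the probe set.

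Of the heavy chains, Kif5a and Kif5c are enriched in neurons and Kif5b is found in most cells. Kif5a had intensities of 221, 278 and 293 at day 6 and 61.8, 70.8 and 48.7 at day 4 in CAG150 cells. In HM1 cells Kif5a had 217, 182 and 238 at day 6 and 64.8, 51.9 and 35.8 at day 4. The day 6 arrays stood apart from the day 4 arrays in each line, with a difference of 1.88 ± 0.17 (limma adjusted p 2.28e-06) in CAG150 cells and 1.79 ± 0.17 (limma adjusted p 4.9e-06) in HM1 cells. A dimmer Kif5a probe set gave 0.76 in CAG150 cells (limma adjusted p 0.00699, with each probe set fitted on its own) and 0.37 in HM1 cells (limma adjusted p 0.159), so its size too depends on the probe set. Kif5c had 1676, 1703 and 1676 at day 6 and 493, 519 and 494 at day 4 in CAG150 cells. In HM1 cells Kif5c had 1525, 1277 and 1458 at day 6 and 488, 506 and 472 at day 4. These groups did not overlap either, and Kif5c rose by 1.71 ± 0.082 (limma adjusted p 9.93e-09) in CAG150 cells and 1.51 ± 0.082 (limma adjusted p 4.08e-08) in HM1 cells, with 3 of 3 probe sets above the filter passing in each, at 1.63 to 1.71 in CAG150 cells and 1.51 to 2.05 in HM1 cells. Kif5b had 781, 808 and 968 at day 6 and 1022, 842 and 839.6 at day 4 in CAG150 cells. In HM1 cells Kif5b had 747, 984 and 575 at day 6 and 618, 551 and 692 at day 4. Its days overlapped in both lines, with differences of -0.079 ± 0.17 (limma adjusted p 0.732) in CAG150 cells and 0.28 ± 0.17 (limma adjusted p 0.22) in HM1 cells, and 0 of its 6 probe sets passed between the days in either line.

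**Figure D2:**
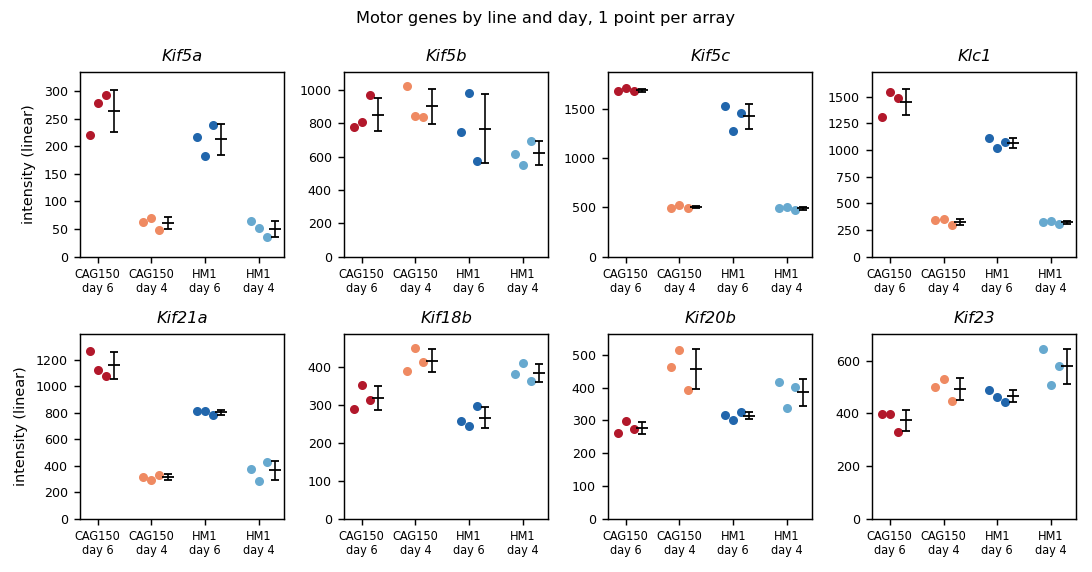
Intensity on each array for 5 axonal transport genes and 3 mitotic kinesins, by line and day, with the mean and SD of the 3 arrays beside the points. Kif5a, Kif5c, Klc1 and Kif21a lie well above day 4 at day 6 in both lines, Kif5b overlaps between the days, and Kif18b, Kif20b and Kif23 are lower at day 6.

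Kif21a, a kinesin-4 family member that restrains microtubule growth in axons, had 1267, 1126 and 1077 at day 6 and 316, 288 and 331 at day 4 in CAG150 cells. In HM1 cells Kif21a had 809, 815 and 783 at day 6 and 377, 286 and 428 at day 4. The days did not overlap in either line, and the difference was 1.84 ± 0.13 (limma adjusted p 2.13e-07) in CAG150 cells and 1.13 ± 0.13 (limma adjusted p 1.91e-05) in HM1 cells. Its relative Kif21b had smaller differences, 0.39 ± 0.14 (limma adjusted p 0.0364) in CAG150 cells and 0.49 ± 0.14 (limma adjusted p 0.0152) in HM1 cells. The CAG150 call for Kif21b ended in 10 of 20 alternative settings of the processing (highest adjusted p 0.157) and the HM1 call in 5 (highest 0.128), 3 of which leave out HM1 day 6 replicate 1, HM1 day 6 replicate 3 or HM1 day 4 replicate 3. A second Kif21a probe set gave 2.00 in CAG150 cells and 1.23 in HM1 cells, close to the first.

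Among the kinesin-3 motors, which carry synaptic vesicle precursors and mitochondria, Kif1b rose in both lines, while the 2 probe sets of Kif1a went opposite ways in CAG150 cells. Kif1b differed by 1.13 ± 0.099 (limma adjusted p 1.88e-06) in CAG150 cells and 0.81 ± 0.099 (limma adjusted p 4.16e-05) in HM1 cells, and 7 of its 7 probe sets were higher at day 6 in both lines, 6 of them passing in each. Kif1a had 82.1, 107 and 101 at day 6 and 68.7, 69.6 and 64.7 at day 4 in CAG150 cells. In HM1 cells Kif1a had 116, 83.0 and 105 at day 6 and 119, 96.9 and 74.5 at day 4. Day 6 lay above day 4 in CAG150 cells, with a difference of 0.42 ± 0.15 (limma adjusted p 0.0339), and the days overlapped in HM1 cells, at 0.067 ± 0.15 (limma adjusted p 0.755). The other Kif1a probe set gave -0.37 in both lines and did not pass, and with the mean of the probe sets the CAG150 call ended (adjusted p 0.902). Kif1c, a kinesin-3 of many cell types, fell by 0.41 ± 0.12 (limma adjusted p 0.0133) in CAG150 cells and differed by -0.28 ± 0.12 (limma adjusted p 0.0774) in HM1 cells, and the CAG150 call ended with the mean of its 4 probe sets (adjusted p 0.386).

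Kinesin-2 is built from Kif3a with Kif3b or Kif3c and serves both cilia and axons. Kif3c, the subunit enriched in neurons, had 186, 239 and 236 at day 6 and 127, 139.9 and 142 at day 4 in CAG150 cells. In HM1 cells Kif3c had 233, 169.8 and 208 at day 6 and 147, 147 and 115 at day 4. The days did not overlap, and Kif3c rose by 0.62 ± 0.13 (limma adjusted p 0.00203) in CAG150 cells and 0.52 ± 0.13 (limma adjusted p 0.00744) in HM1 cells, while its other probe set gave 1.43 and 1.03. Kif3a differed by 0.39 ± 0.14 (limma adjusted p 0.0384) in CAG150 cells, a call lost in 8 of 20 alternatives (highest adjusted p 0.131), and by 0.44 ± 0.14 (limma adjusted p 0.0242) in HM1 cells, lost in 5 (highest 0.104). Kif3b differed by 0.22 ± 0.11 (limma adjusted p 0.123) in CAG150 cells and by 0.45 ± 0.11 (limma adjusted p 0.00579) in HM1 cells. All 4 Kif3b probe sets were higher at day 6 in both lines and 1 passed in each, at 0.043 to 0.57 in CAG150 cells and 0.22 to 0.45 in HM1 cells. With the mean of the probe sets the CAG150 difference passed (limma adjusted p 0.0246), so the CAG150 result depends on the probe set. The light chain Klc4 rose by 0.52 ± 0.099 (limma adjusted p 0.000994) in CAG150 cells and 0.78 ± 0.099 (limma adjusted p 5.45e-05) in HM1 cells. Klc3, a light chain best known from testis in the rat and mouse, was dim at a mean of 9.16 ± 6.42 at day 6 and 19.4 ± 5.52 at day 4 in CAG150 cells and 16.2 ± 5.09 at day 6 and 36.8 ± 7.94 at day 4 in HM1 cells (SD, n = 3 arrays each). Klc3 fell by 0.51 ± 0.19 (limma adjusted p 0.0415) in CAG150 cells, a call lost in 8 of 19 alternatives (highest adjusted p 0.172), and by 0.72 ± 0.19 (limma adjusted p 0.00939) in HM1 cells, lost with a pseudocount of 1 (adjusted p 0.0572).

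Cytoplasmic dynein 1 carries cargo towards the cell body and also works at the spindle and the nucleus. Of its 10 genes, counting the light chains it shares with other complexes, 7 rose in CAG150 cells and 4 in HM1 cells, and 0 fell in either. The shares that rose were 70% and 40%, against 22.5% and 20.4% of all genes, while 21.9% and 18.5% of all genes fell. At an unadjusted p under 0.05, limma gave 0 lower in CAG150 cells and 1 lower in HM1 cells. The median difference was 0.43 in CAG150 cells and 0.23 in HM1 cells. With median centring 5 rose in CAG150 cells, and 3 rose and 1 fell in HM1 cells. The shares that rose were then 50% and 30%, against 16.1% and 14.3% of all genes, and 10% fell in HM1 cells against 25.1%. The heavy chain Dync1h1, which holds the motor domain, had 1090.1, 1301 and 1245 at day 6 and 875, 845 and 942 at day 4 in CAG150 cells. In HM1 cells Dync1h1 had 1138, 1107 and 1169.7 at day 6 and 1069, 1040.1 and 867 at day 4. Day 6 lay above day 4 on every array in both lines, by 0.44 ± 0.10 (limma adjusted p 0.00313) in CAG150 cells and 0.20 ± 0.10 (limma adjusted p 0.13) in HM1 cells. A much dimmer Dync1h1 probe set gave 0.058 and 0.037, and the mean of both probe sets ended the CAG150 call (adjusted p 0.121).

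The intermediate chains tie the heavy chains to dynactin. Dync1i2, found in most cells, had 1435, 1355 and 1413 at day 6 and 999, 961 and 930.0 at day 4 in CAG150 cells. In HM1 cells Dync1i2 had 1332, 1399 and 1389.7 at day 6 and 951, 1061 and 976 at day 4. It rose by 0.53 ± 0.076 (limma adjusted p 0.000107) in CAG150 cells and 0.46 ± 0.076 (limma adjusted p 0.00046) in HM1 cells with no overlap of the days. Dync1i1, the intermediate chain of neurons, was dim, close to the filter of 11.9, with 23.8, 18.7 and 27.6 at day 6 and 10.4, 14.2 and 15.4 at day 4 in CAG150 cells. In HM1 cells Dync1i1 had 14.7, 26.1 and 26.5 at day 6 and 16.03, 8.87 and 13.5 at day 4. The days overlapped in HM1 cells and not in CAG150 cells, and the differences of 0.42 ± 0.14 (limma adjusted p 0.0296) in CAG150 cells and 0.41 ± 0.14 (limma adjusted p 0.0388) in HM1 cells were each lost in 8 of 19 alternative settings (highest adjusted p 0.109 and 0.147). Of the light intermediate chains, which bind cargo adaptors, Dync1li2 had 1277, 1216 and 1221 at day 6 and 643, 591 and 644 at day 4 in CAG150 cells. In HM1 cells Dync1li2 had 887, 884 and 714 at day 6 and 505, 484 and 491 at day 4. Every day 6 array was higher than every day 4 array, and Dync1li2 rose by 0.97 ± 0.092 (limma adjusted p 3.89e-06) in CAG150 cells and 0.72 ± 0.092 (limma adjusted p 5.74e-05) in HM1 cells. Dync1li1 differed by 0.12 ± 0.14 (limma adjusted p 0.54) in CAG150 cells and -0.0028 ± 0.14 (limma adjusted p 0.99) in HM1 cells.

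Among the light chains, the roadblock chain Dynlrb1 had 1072, 1277 and 1299 at day 6 and 904, 909.8 and 758 at day 4 in CAG150 cells. In HM1 cells Dynlrb1 had 1209, 1265 and 1384 at day 6 and 1067, 1112 and 1063 at day 4. It rose by 0.50 ± 0.10 (limma adjusted p 0.00164) in CAG150 cells and was 0.25 ± 0.10 (limma adjusted p 0.0738) in HM1 cells, with no overlap of the days in either line. The LC8 light chains are shared with many other complexes, and of these Dynll2 had 3925, 4548 and 4117 at day 6 and 3619.7, 3574 and 3168 at day 4 in CAG150 cells. In HM1 cells Dynll2 had 3664, 3362 and 3246 at day 6 and 3137, 3542 and 2770.5 at day 4. Dynll2 rose in CAG150 cells by 0.28 ± 0.11 (limma adjusted p 0.0462), a call lost in 12 of 20 alternatives (highest adjusted p 0.184), and the days overlapped in HM1 cells, at 0.13 ± 0.11 (limma adjusted p 0.376). Dynll1 differed by -0.17 ± 0.097 (limma adjusted p 0.172) in CAG150 cells and -0.24 ± 0.097 (limma adjusted p 0.0653) in HM1 cells. Of its other probe sets 2 gave -0.18 and -0.19 in CAG150 cells and -0.19 and -0.22 in HM1 cells. The dim other one lay the opposite way, at 0.51 in CAG150 cells (limma adjusted p 0.0382, with each probe set fitted on its own) and 0.31 in HM1 cells (limma adjusted p 0.2). Dynlt1f, of the Tctex light chains, had 114, 133 and 112 at day 6 and 51.5, 30.9 and 38.7 at day 4 in CAG150 cells. In HM1 cells Dynlt1f had 118, 91.4 and 88.2 at day 6 and 49.1, 43.4 and 44.3 at day 4. Every day 6 array lay above every day 4 array. Dynlt1f rose by 1.28 ± 0.13 (limma adjusted p 9.25e-06) in CAG150 cells and 0.89 ± 0.13 (limma adjusted p 0.00022) in HM1 cells. Its probe set may also match the near-identical Dynlt1a, Dynlt1b and Dynlt1c, so the gene behind this value is uncertain. Its relative Dynlt3 differed by 0.11 ± 0.088 (limma adjusted p 0.338) in CAG150 cells and 0.20 ± 0.088 (limma adjusted p 0.0859) in HM1 cells. The 4 Dynlt3 probe sets gave -0.12 to 0.15 in CAG150 cells, where 0 passed, and 0.18 to 0.37 in HM1 cells, where 1 passed. With the mean of the probe sets the HM1 difference passed (limma adjusted p 0.0437), so the HM1 result depends on the probe set.

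Dynactin links dynein to cargo and keeps it on the microtubule. Of its 6 genes 5 rose in CAG150 cells and 2 in HM1 cells, 83.3% and 33.3% against 22.5% and 20.4% of all genes. The median difference was 0.38 in CAG150 cells and 0.19 in HM1 cells. With median centring 3 rose in CAG150 cells and 1 in HM1 cells, with medians of 0.28 and 0.089. That is 50% and 16.7% against 16.1% and 14.3% of all genes, so in HM1 cells the share was then near that of all genes. Dctn1, the large subunit that binds microtubules, had 1040.4, 928 and 1016 at day 6 and 609, 673 and 708 at day 4 in CAG150 cells. In HM1 cells Dctn1 had 822, 831 and 908 at day 6 and 608, 691 and 635 at day 4. The days did not overlap, and Dctn1 rose by 0.57 ± 0.090 (limma adjusted p 0.000222) in CAG150 cells and 0.40 ± 0.090 (limma adjusted p 0.00379) in HM1 cells, the last of which was lost with median centring (adjusted p 0.057). Dctn4, a subunit of the pointed end, had 509, 519.9 and 464 at day 6 and 306, 282 and 350.2 at day 4 in CAG150 cells. In HM1 cells Dctn4 had 471, 488 and 447 at day 6 and 329.8, 267 and 294 at day 4. It rose by 0.65 ± 0.10 (limma adjusted p 0.000224) in CAG150 cells and 0.63 ± 0.10 (limma adjusted p 0.000342) in HM1 cells without overlap of the days, and 4 of its 5 probe sets above the filter passed in each line. Dctn3, of the shoulder, had 1264, 1186 and 1258 at day 6 and 847, 938 and 987 at day 4 in CAG150 cells. In HM1 cells Dctn3 had 1012, 1105 and 1175 at day 6 and 891, 986 and 944 at day 4. The days did not overlap. Dctn3 rose in CAG150 cells by 0.42 ± 0.088 (limma adjusted p 0.00207) and was 0.22 ± 0.088 (limma adjusted p 0.0689) in HM1 cells. Dctn2, or dynamitin, had 941, 1046 and 1057 at day 6 and 760.4, 819.7 and 794 at day 4 in CAG150 cells. In HM1 cells Dctn2 had 1083, 984 and 1140.1 at day 6 and 868, 1123 and 871 at day 4. The days were apart in CAG150 cells and overlapped in HM1 cells. Its rise in CAG150 cells of 0.35 ± 0.11 (limma adjusted p 0.0184) was lost with median centring and without CAG150 day 6 replicate 2, CAG150 day 6 replicate 3 or CAG150 day 4 replicate 1 (highest adjusted p 0.115), and that of Dctn5, at 0.25 ± 0.093 (limma adjusted p 0.0422), in 10 of 20 (highest 0.249). Dctn6, of the pointed end, differed by 0.029 ± 0.16 (limma adjusted p 0.9) in CAG150 cells and 0.065 ± 0.16 (limma adjusted p 0.781) in HM1 cells. Its dimmer probe set gave 0.46 in CAG150 cells (limma adjusted p 0.00142, with each probe set fitted on its own) and 0.19 in HM1 cells (limma adjusted p 0.139), so the CAG150 result depends on the probe set.

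Mitotic kinesins fell more often than all genes tested did in CAG150 cells, and about as often in HM1 cells. Of 9 tested, 5 fell in CAG150 cells, 55.6% against 21.9% of all genes, and 2 in HM1 cells, 22.2% against 18.5%. In either line 0 rose, against 22.5% of all genes in CAG150 cells and 20.4% in HM1 cells, with limma giving 0 higher at an unadjusted p under 0.05 too. The median difference was -0.36 in CAG150 cells and -0.18 in HM1 cells. Kif14, Kif15 and Kif2b had mean intensities of 5.93, 2.80 and 1.13 over the 12 arrays, below the filter, and were not tested. With each array centred on its median, 5 of 9 fell in each line, 55.6% against 28.3% of all genes in CAG150 cells and 25.1% in HM1 cells.

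The kinesin-6 motors work at the midzone of the spindle and in cytokinesis. Kif20b had 262, 298 and 273 at day 6 and 464, 515 and 392 at day 4 in CAG150 cells. In HM1 cells Kif20b had 315, 302 and 325 at day 6 and 416, 339 and 401 at day 4. Every day 6 array was lower than every day 4 array in both lines, and the difference was -0.68 ± 0.11 (limma adjusted p 0.000279) in CAG150 cells and -0.28 ± 0.11 (limma adjusted p 0.0628) in HM1 cells. Kif20a had 502, 513 and 482 at day 6 and 661, 682 and 649 at day 4 in CAG150 cells. In HM1 cells Kif20a had 557, 502 and 578 at day 6 and 634, 592 and 604 at day 4. The days again did not overlap, and Kif20a differed by -0.40 ± 0.079 (limma adjusted p 0.00115) in CAG150 cells and -0.16 ± 0.079 (limma adjusted p 0.13) in HM1 cells. Kif23, the motor subunit of centralspindlin, had 396, 396 and 329 at day 6 and 502, 532 and 449 at day 4 in CAG150 cells. In HM1 cells Kif23 had 489, 464 and 443 at day 6 and 646, 509.6 and 582 at day 4. The days did not overlap in either line, and Kif23 fell by 0.39 ± 0.11 (limma adjusted p 0.0114) in CAG150 cells, a call lost without CAG150 day 6 replicate 3 (adjusted p 0.0556), and by 0.30 ± 0.11 (limma adjusted p 0.0442) in HM1 cells, lost in 10 of 20 alternatives (highest adjusted p 0.7).

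Kif18b, a kinesin-8 that shortens astral microtubules, had 288, 351 and 312 at day 6 and 388, 448 and 411 at day 4 in CAG150 cells. In HM1 cells Kif18b had 256, 244 and 296 at day 6 and 380.2, 409 and 363 at day 4. Its day 6 arrays lay below its day 4 arrays in each line, and Kif18b fell by 0.38 ± 0.10 (limma adjusted p 0.00913) in CAG150 cells and 0.51 ± 0.10 (limma adjusted p 0.0017) in HM1 cells. Kif2c, which takes microtubules apart at the kinetochore, differed by -0.36 ± 0.083 (limma adjusted p 0.00324) in CAG150 cells and -0.14 ± 0.083 (limma adjusted p 0.216) in HM1 cells, but its brightest probe set may match other transcripts, the other 3 did not pass, and with the mean of the probe sets the CAG150 call ended (adjusted p 0.24). Kif11, which slides the spindle's poles apart, had 566, 455 and 482 at day 6 and 539, 576 and 527 at day 4 in CAG150 cells. In HM1 cells Kif11 had 439, 508 and 444 at day 6 and 548, 466 and 565 at day 4. Here the days overlapped in both lines, with differences of -0.13 ± 0.11 (limma adjusted p 0.351) in CAG150 cells and -0.18 ± 0.11 (limma adjusted p 0.213) in HM1 cells. Kif22, a motor on chromosome arms, differed by -0.25 ± 0.14 (limma adjusted p 0.162) in CAG150 cells and -0.27 ± 0.14 (limma adjusted p 0.132) in HM1 cells on its brightest probe set, which may match other transcripts, and its other 2 probe sets passed, at -0.39 and -0.44 in CAG150 cells and -0.29 and -0.24 in HM1 cells. The chromosome-bound Kif4 differed by -0.082 ± 0.11 (limma adjusted p 0.562) in CAG150 cells and 0.071 ± 0.11 (limma adjusted p 0.632) in HM1 cells, and the kinesin-8 Kif18a by -0.25 ± 0.15 (limma adjusted p 0.206) and -0.14 ± 0.15 (limma adjusted p 0.51).

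Many genes of mitosis carry in their promoter a cell cycle genes homology region (CHR), the element through which the DREAM and MuvB complexes hold them down outside division. The letters TTTGAA, searched on both strands, were in the promoter of 9 of 11 mitotic kinesins with a promoter in the RefSeq table of build GRCm38.p6, or 81.8%. They were in 1 of 11 axonal transport genes (9.09%), 0 of 8 dynein 1 genes and 1 of 4 dynactin genes, against 20.2% of 27025 genes. A gene was counted if any of its promoters, each of the same 300 bases, 250 before to 50 after the start, held the letters. CCAAT, on both strands, was in 7 of 11 mitotic kinesins (63.6%) and 5 of 11 axonal transport genes (45.5%), against 41.1% of all genes. The E2F letters, TTGGCGC on either strand or in their other form TTCCCGC, were in 2 of 11 mitotic kinesins (18.2%) and 0 of 11 axonal transport genes, against 7.79% of all genes. A match is a description of the letters and not a site, and 48 of 59 members had a promoter in the table. The following 60 bases are shown for 6 of the tested mitotic kinesins that hold TTTGAA, read 5′ to 3′ on the gene's strand. Capitals mark the TTTGAA letters and the CCAAT letters, on either strand.
Kif20b, chr19:34922338-34922397, plus strand: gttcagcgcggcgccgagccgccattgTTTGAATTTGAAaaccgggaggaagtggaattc
Kif23, chr9:61946765-61946824, minus strand: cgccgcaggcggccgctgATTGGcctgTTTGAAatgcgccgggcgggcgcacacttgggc
Kif11, chr19:37376336-37376395, plus strand: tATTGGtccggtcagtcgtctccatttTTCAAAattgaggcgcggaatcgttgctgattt
Kif22, chr7:127042405-127042464, minus strand: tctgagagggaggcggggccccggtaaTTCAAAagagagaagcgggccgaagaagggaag
Kif2c, chr4:117178843-117178902, minus strand: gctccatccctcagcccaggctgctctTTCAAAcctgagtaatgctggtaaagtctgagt
Kif4, chrX:100626055-100626114, plus strand: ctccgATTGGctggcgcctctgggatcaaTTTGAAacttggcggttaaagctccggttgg
In Kif20b the letters stand at 2 places side by side. They begin 7 bases after the start in Kif20b, 2 bases after the start in Kif23 and 19 bases after the start in Kif4, and 19 bases before it in Kif11, 17 bases before it in Kif22 and 103 bases before it in Kif2c. The whole 300 bases follow for Kif18b, which fell in both lines, and for Klc1, which on the brightest probe set rose most among the members in CAG150 cells.
Kif18b, chr11:102925075-102925374, minus strand: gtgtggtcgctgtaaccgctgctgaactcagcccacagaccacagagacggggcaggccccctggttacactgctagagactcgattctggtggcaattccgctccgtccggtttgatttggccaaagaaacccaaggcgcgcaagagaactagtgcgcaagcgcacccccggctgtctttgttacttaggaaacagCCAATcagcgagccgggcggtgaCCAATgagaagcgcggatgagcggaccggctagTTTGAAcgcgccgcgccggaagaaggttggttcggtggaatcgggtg
Klc1, chr12:111758618-111758917, plus strand: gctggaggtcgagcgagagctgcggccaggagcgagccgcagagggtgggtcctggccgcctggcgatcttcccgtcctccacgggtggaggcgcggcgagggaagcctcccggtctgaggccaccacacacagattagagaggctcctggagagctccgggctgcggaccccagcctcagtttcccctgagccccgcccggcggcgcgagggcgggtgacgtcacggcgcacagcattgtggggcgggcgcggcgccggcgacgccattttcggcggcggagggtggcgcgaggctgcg
Kif18b holds TTTGAA at 1 place, beginning 3 bases after the start, and CCAAT at 2 places upstream of it, while these letters and the E2F letters are not in the Klc1 window.

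Set against each other on each array, the 9 mitotic kinesins and the 14 axonal transport genes moved apart between the days. A difference between the lists' means has no meaning on a single array, since probes differ in brightness, and it is read only between arrays. The mean log2(intensity + 16) over the mitotic kinesins was 8.73, 8.68 and 8.71 at day 6 and 9.08, 9.03 and 8.98 at day 4 in CAG150 cells, and 8.66, 8.70 and 8.71 at day 6 and 8.94, 8.83 and 8.93 at day 4 in HM1 cells. Over the axonal transport genes it was 8.26, 8.44 and 8.46 at day 6 and 7.66, 7.65 and 7.66 at day 4 in CAG150 cells, and 8.26, 8.15 and 8.26 at day 6 and 7.66, 7.57 and 7.52 at day 4 in HM1 cells. In both lines every day 6 array lay below every day 4 array in the first and above it in the second.

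The mitotic mean minus the axonal mean was 0.46, 0.24 and 0.25 at day 6 against 1.42, 1.38 and 1.32 at day 4 in CAG150 cells, and 0.40, 0.55 and 0.45 against 1.28, 1.26 and 1.41 in HM1 cells. The group means were 0.32 ± 0.13 at day 6 and 1.37 ± 0.051 at day 4 in CAG150 cells, and 0.47 ± 0.076 and 1.32 ± 0.084 in HM1 cells (SD, n = 3 arrays each). The change between the days was -1.05 in CAG150 cells and -0.85 in HM1 cells, many times the SD between arrays. CAG150 minus HM1 was -0.15 at day 6, somewhat larger in size than the SDs of 0.13 and 0.076. At day 4 it was 0.054, near the SDs of 0.051 and 0.084. With dynein 1 and dynactin added to the axonal list the change between the days was -0.89 in CAG150 cells and -0.66 in HM1 cells, and with the mean of all probe sets of a gene it was -0.81 and -0.62.

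**Figure D3:**
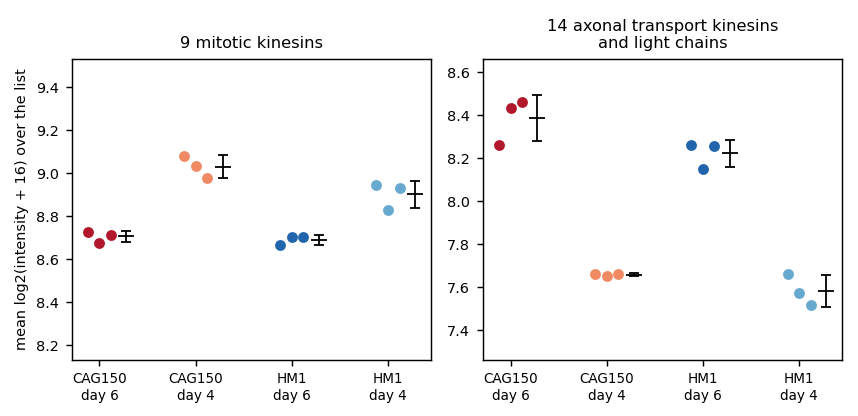
Mean log2(intensity + 16) over the mitotic kinesins (left) and over the axonal transport kinesins and light chains (right), 1 point per array, with the mean and SD of each group. The axes of both panels have the same length in log2 units, but each is centred on the mean of its own list. The axonal mean differs by 0.73 between the days in CAG150 cells and 0.64 in HM1 cells, the mitotic mean by -0.32 and -0.21.

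The neuron markers moved with the axonal transport genes. Of 9 neuron markers 8 rose in each line, 88.9% against 22.5% of all genes in CAG150 cells and 20.4% in HM1 cells. Their median difference was 2.18 in CAG150 cells and 1.93 in HM1 cells. Tubb3, the neuronal beta tubulin, averaged 3092 at day 6 and 604 at day 4 in CAG150 cells and 2064 and 530.5 in HM1 cells. The part of the neuron markers in the motor genes' rise was not tested. Beside the mitotic kinesins, of 19 spindle and division genes outside the rule 9 fell and 2 rose in CAG150 cells, 47.4% and 10.5% against 21.9% and 22.5% of all genes, with a median of -0.14. In HM1 cells 5 fell and 3 rose, 26.3% and 15.8% against 18.5% and 20.4%, nearer to all genes, with a median of -0.075. The kinetochore kinase Bub1 fell by 0.59 in CAG150 cells and 0.52 in HM1 cells, and the mitotic kinase Cdk1 by 0.53 and 0.41. The minus-end kinesin Kifc1, whose symbol falls outside the rule, fell by 0.57 in CAG150 cells and was -0.10 in HM1 cells (limma adjusted p 0.659). Mki67, a proliferation marker, was higher at day 6, with 1724 ± 60.6 at day 6 and 1442 ± 105 at day 4 in CAG150 cells and 1628 ± 57.5 at day 6 and 1345 ± 160.4 at day 4 in HM1 cells (SD, n = 3 arrays each).

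Adaptors and regulators that couple motors to cargo, a list outside the rule, were tested alongside. Of 23, 15 rose and 4 fell in CAG150 cells, 65.2% and 17.4% against 22.5% and 21.9% of all genes, with a median of 0.38. In HM1 cells 11 rose and 3 fell, 47.8% and 13% against 20.4% and 18.5%, with a median of 0.30. Fez1, a kinesin-1 adaptor for axonal cargo, averaged 1206 ± 92.1 at day 6 and 596 ± 53.9 at day 4 in CAG150 cells and 1343 ± 46.9 at day 6 and 468 ± 71.8 at day 4 in HM1 cells (SD, n = 3 arrays each), and rose by 0.999 in CAG150 cells and 1.501 in HM1 cells. Hook1, a dynein adaptor for endosomes, averaged 341 ± 4.92 at day 6 and 566 ± 32.6 at day 4 in CAG150 cells and 296 ± 25.4 at day 6 and 572 ± 43.1 at day 4 in HM1 cells (SD, n = 3 arrays each), and fell by 0.70 and 0.92. Both day directions therefore occur among the adaptors.

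Few motors linked to cilia and few of the remaining kinesins passed between the days, in lists of only 6 tested genes each. Of 6 tested genes of dynein 2 or linked to cilia 1 rose in CAG150 cells and 0 in HM1 cells, where 1 had an unadjusted limma p under 0.05, and 0 fell. The shares that rose were 16.7% and 0%, against 22.5% and 20.4% of all genes, and 21.9% and 18.5% of all genes fell. With 6 genes, 1 call is near the share of all genes in CAG150 cells and is not a result about these motors. Kif6, a kinesin of motile cilia, was the one that rose, with 23.1, 25.1 and 24.2 at day 6 and 16.4, 14.7 and 19.6 at day 4 in CAG150 cells. In HM1 cells Kif6 had 16.5, 16.5 and 18.6 at day 6 and 13.7, 9.08 and 15.2 at day 4. These values are close to the filter. The days did not overlap, and the difference of 0.29 ± 0.095 (limma adjusted p 0.0263) in CAG150 cells was lost in 8 of 19 alternatives (highest adjusted p 0.308), with 0.22 ± 0.095 (limma adjusted p 0.09) in HM1 cells. The dynein 2 heavy chain Dync2h1, the retrograde motor of cilia, differed by 0.0038 in CAG150 cells and 0.22 in HM1 cells, and Kif7, which acts at the ciliary tip in Hedgehog signalling, by -0.26 and -0.21, and neither passed. Kif24, a centriole kinesin that holds back cilium formation, differed by -0.18 and -0.046, and Kif9, of motile cilia, which was dim at a mean of 15.1, by 0.46 and 0.045, without passing. Of 4 motile cilium genes with signal outside the rule 1 rose and 1 fell in CAG150 cells, 25% each against 22.5% and 21.9% of all genes. In HM1 cells 1 fell, 25% against 18.5%. The summed level of all 6 was 135 to 139.9 at day 6 against 118 to 151 at day 4 in CAG150 cells and 68.3 to 98.7 against 89.6 to 134 in HM1 cells. Dynlrb2 and Kif27 were below the filter.

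Among 6 tested kinesins with other roles, Kif13b, which carries cargo to the cell surface, rose in CAG150 cells and Kif26b fell in HM1 cells. Each is 16.7% of the list, near the 22.5% of all genes that rose in CAG150 cells and the 18.5% that fell in HM1 cells. Kif13b had 73.1, 65.0 and 74.0 at day 6 and 43.3, 47.1 and 60.5 at day 4 in CAG150 cells. In HM1 cells Kif13b had 52.0, 54.1 and 71.8 at day 6 and 74.6, 84.9 and 56.9 at day 4. The days were apart in CAG150 cells, at 0.39 ± 0.14 (limma adjusted p 0.0366), and overlapped in HM1 cells, at -0.22 ± 0.14 (limma adjusted p 0.231), and the CAG150 call was lost in 9 of 20 alternatives (highest adjusted p 0.657, with the mean of its probe sets). The endosome kinesins Kif13a and Kif16b and the microtubule depolymerase Kif2a, which acts in neurites as well as at spindle poles, differed by -0.066 to 0.15 in both lines. On the brightest probe set none of these 3 passed in any of the 5 comparisons. Of the 5 Kif13a probe sets 1 passed between the lines at day 4, with each probe set fitted on its own. There the 5 gave -0.10, on the brightest, to 0.68, and 4 were positive. Kif12, Kif17, a dendritic motor, and Kif28 were below the filter.

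Between the lines fewer motor genes differed. At day 6, 5 members were higher in CAG150 cells and 1 lower, 9.8% and 1.96%, against 10.1% and 11.2% of all genes tested (21.4% in either direction). At day 4, 2 were higher and 4 lower, 3.92% and 7.84%, against 7.87% and 7.92% of all genes (15.8% in either direction). The share of higher members at day 6 was near that of all genes. With median centring the split was 3 higher and 2 lower at day 6, 5.88% and 3.92% against 6.6% and 13.2% of all genes. At day 4 it was 0 higher and 6 lower, 0% and 11.8% against 4.35% and 9.49%. Without CAG150 day 6 replicate 1, 3 members passed at day 6, and with a pseudocount of 64, 11 passed at day 6 and 10 at day 4. The median member differed by 0.084 at day 6 and 0.039 at day 4, or -0.024 at day 4 with median centring. In the main fit 0 of 9 mitotic kinesins passed at either day. At an unadjusted limma p under 0.05 there were 3 and 1, and the share of all genes at that threshold was not computed. With quantile normalization Kif22 was higher and Kif23 lower at day 6, 11.1% each against 9.38% and 12.5% of all genes. With median centring Kif23 was lower at day 6, 11.1% against 13.2%. The comparisons between the lines share arrays with those between the days.

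**Figure D4:**
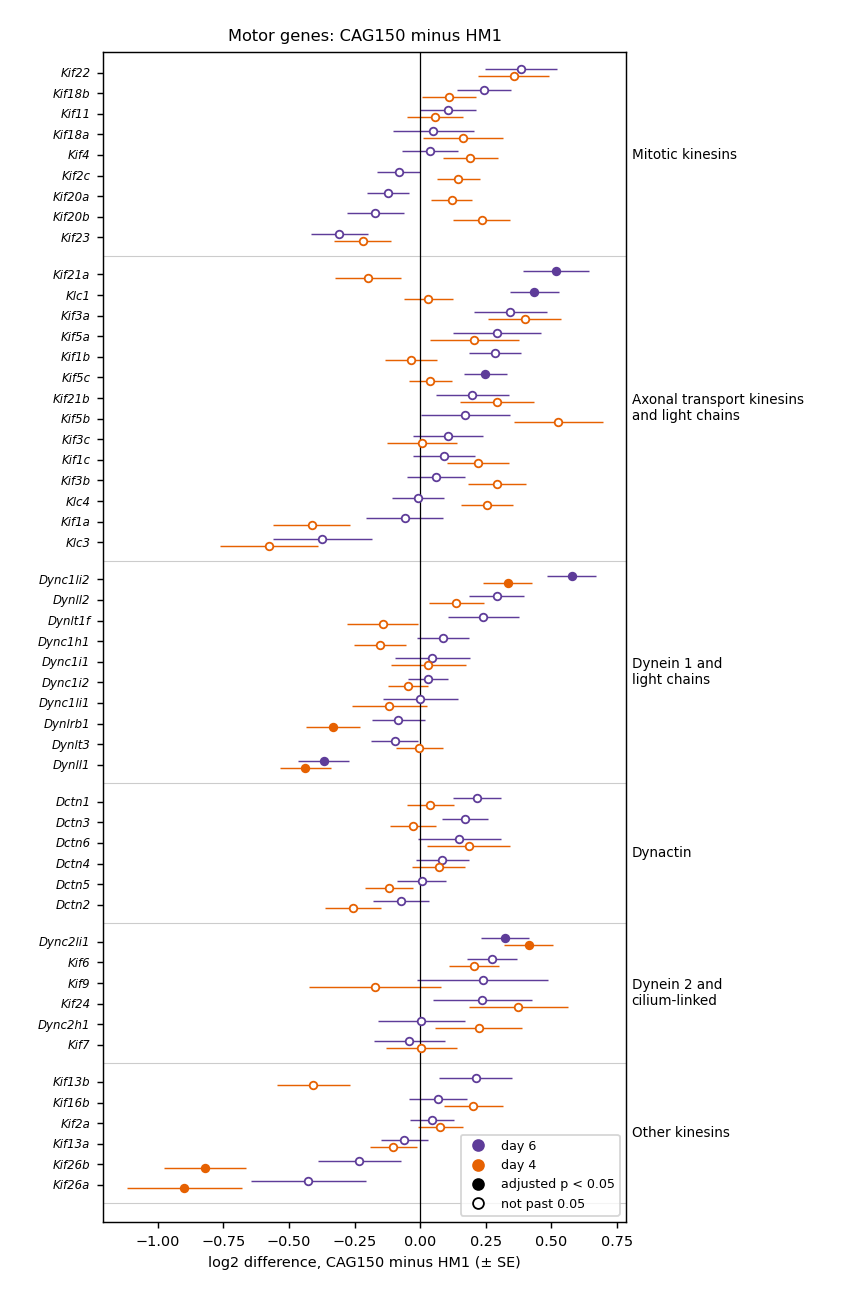
The 51 motor genes tested, by role, with the log2 difference of CAG150 minus HM1 at day 6 (purple) and at day 4 (orange). Bars are the standard error of limma's fit, filled points have an adjusted p under 0.05, and the mitotic kinesins have 0 filled points at either day.

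At day 6, 3 of the 14 axonal transport genes were higher in CAG150 cells, namely Klc1, Kif21a and Kif5c, and 0 were lower. That is 21.4% and 0%, against 10.1% and 11.2% of all genes. At day 4, 0 passed, against 15.8% of all genes in either direction. With median centring 2 were higher at day 6, 14.3% against 6.6% of all genes, and 2 were lower at day 4, 14.3% against 9.49%. Klc1 had 1313, 1548 and 1488 in CAG150 cells and 1114, 1015 and 1072 in HM1 cells at day 6. The lines did not overlap, and the difference was 0.43 ± 0.093 (limma adjusted p 0.00555), against 0.03 ± 0.093 (limma adjusted p 0.871) at day 4, when they overlapped. Of the 3 Klc1 probe sets 1 passed between the lines at day 6, and the other 2 gave 0.49 and -0.087 (limma adjusted p 0.0538 and 0.582, with each probe set fitted on its own). Kif21a had 1267, 1126 and 1077 in CAG150 cells and 809, 815 and 783 in HM1 cells at day 6. There was again no overlap, and it differed by 0.52 ± 0.13 (limma adjusted p 0.0113), against -0.20 ± 0.13 (limma adjusted p 0.322) at day 4. Kif5c differed by 0.25 ± 0.082 (limma adjusted p 0.0487) at day 6, a call lost in 14 of 20 alternatives (highest adjusted p 0.192), and by 0.039 ± 0.082 (limma adjusted p 0.798) at day 4. Of the 9 neuron markers 8 were higher in CAG150 cells at day 6, 88.9% against 10.1% of all genes, with a median of 0.57. At day 4, 4 were higher and 2 lower, 44.4% and 22.2% against 7.87% and 7.92%. The part of these markers in the differences of the motor genes was not tested.

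Of the dynein subunits, Dync1li2 was higher in CAG150 cells and Dynll1 lower at both days. Dync1li2 had 1277, 1216 and 1221 in CAG150 cells and 887, 884 and 714 in HM1 cells at day 6. At day 4 Dync1li2 had 643, 591 and 644 in CAG150 cells and 505, 484 and 491 in HM1 cells. The lines did not overlap at either day, and the difference was 0.58 ± 0.092 (limma adjusted p 0.000797) at day 6 and 0.33 ± 0.092 (limma adjusted p 0.0277) at day 4, the last lost in 7 of 20 alternatives (highest adjusted p 0.0833). Dync1li2 lies on chromosome 8, where the median of the 671 genes tested was 0.24 at day 6 and 0.20 at day 4.

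Dynll1 had 4240.0, 4731 and 5139 in CAG150 cells and 6126, 5733 and 6317 in HM1 cells at day 6. At day 4 Dynll1 had 5158, 5586 and 5108 in CAG150 cells and 7256, 7768 and 6509 in HM1 cells. Every CAG150 array lay below every HM1 array of its day, and Dynll1 differed by -0.37 ± 0.097 (limma adjusted p 0.0168) at day 6, a call lost without CAG150 day 6 replicate 1 or HM1 day 6 replicate 3 (highest adjusted p 0.0709), and by -0.44 ± 0.097 (limma adjusted p 0.00883) at day 4. Of its 4 probe sets 3 passed at each day, and the dim other one gave -0.032 at day 6 and -0.23 at day 4. Dynlrb1 was lower in CAG150 cells at day 4, at -0.33 ± 0.10 (limma adjusted p 0.0432), a call lost in 13 of 20 alternatives (highest adjusted p 0.152), and differed by -0.083 ± 0.10 (limma adjusted p 0.615) at day 6.

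Dync2li1, the light intermediate chain of dynein 2, had 394, 348 and 404 in CAG150 cells and 286, 314 and 305 in HM1 cells at day 6. At day 4 Dync2li1 had 348, 416 and 413 in CAG150 cells and 292, 281 and 297 in HM1 cells. The lines did not overlap at either day. It was higher in CAG150 cells by 0.32 ± 0.092 (limma adjusted p 0.0253) at day 6, a call lost in 5 of 20 alternatives (highest adjusted p 0.119), and by 0.41 ± 0.092 (limma adjusted p 0.00941) at day 4, lost with median centring (adjusted p 0.0533). Between the days it differed by -0.036 in CAG150 cells and 0.055 in HM1 cells.

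Kif26b and Kif26a, relatives whose motor domains lack ATPase activity, were lower in CAG150 cells at day 4. Kif26b had 24.9, 42.0 and 26.5 in CAG150 cells and 37.6, 46.1 and 32.9 in HM1 cells at day 6. At day 4 Kif26b had 34.5, 29.7 and 21.7 in CAG150 cells and 59.1, 74.6 and 54.3 in HM1 cells. The lines overlapped at day 6 and were apart at day 4, with -0.23 ± 0.16 (limma adjusted p 0.335) at day 6 and -0.82 ± 0.16 (limma adjusted p 0.00385) at day 4. Kif26a had 23.9, 26.7 and 6.55 in CAG150 cells and 25.0, 41.1 and 23.8 in HM1 cells at day 6. At day 4 Kif26a had 18.9, 14.4 and 23.2 in CAG150 cells and 40.8, 58.0 and 48.0 in HM1 cells. It too overlapped at day 6 and was apart at day 4, with -0.43 ± 0.22 (limma adjusted p 0.196) at day 6 and -0.90 ± 0.22 (limma adjusted p 0.0153) at day 4. The day 4 call for Kif26a was lost with a pseudocount of 1 and without CAG150 day 4 replicate 2 or HM1 day 4 replicate 2 (highest adjusted p 0.0668). Fibroblast and smooth muscle markers were also lower in CAG150 cells, 4 of 5 passing at day 6 and 3 of 5 at day 4. That is 80% and 60%, against 11.2% and 7.92% of all genes. The part of these markers in the differences of Kif26a and Kif26b was not tested. In HM1 cells Kif26b fell between the days by 0.52 ± 0.16 (limma adjusted p 0.0198), a call lost without HM1 day 6 replicate 1, HM1 day 6 replicate 3 or HM1 day 4 replicate 2 (highest adjusted p 0.0827).

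**Figure D5:**
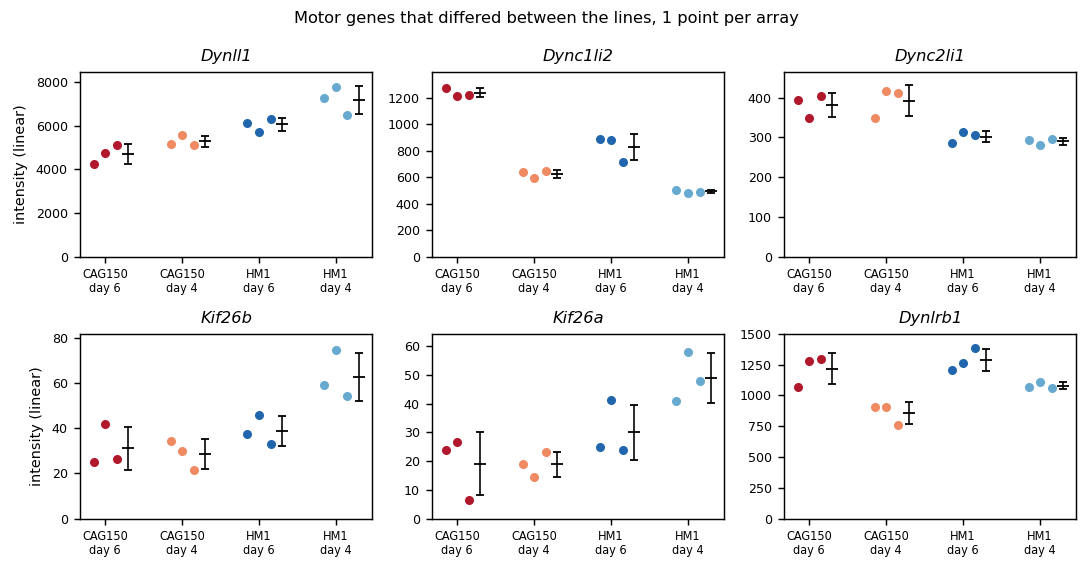
Intensity on each array for 6 motor genes that passed between the lines, by line and day, with the mean and SD of the 3 arrays beside the points. Dynll1 is lower and Dync1li2 and Dync2li1 are higher in CAG150 cells at both days, and Kif26a and Kif26b are lower in CAG150 cells at day 4.

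Among the 23 adaptors, 6 were higher and 1 lower in CAG150 cells at day 6, 26.1% and 4.35% against 10.1% and 11.2% of all genes. At day 4, 3 were higher and 2 lower, 13% and 8.7% against 7.87% and 7.92%, and the share of lower ones was near that of all genes. The lower one at day 6 was Htt, which binds motor complexes and averaged 65.1 ± 6.52 in CAG150 cells and 132 ± 22.1 in HM1 cells at day 6 (SD, n = 3 arrays each). It averaged 105 ± 9.70 in CAG150 cells and 152 ± 12.6 in HM1 cells at day 4 (SD, n = 3 arrays each), and its brightest probe set gave differences of -0.86 at day 6 and -0.48 at day 4. Trak2, which couples mitochondria to motors, was lower at day 4 by 0.74 and differed by -0.0095 at day 6.

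The day differences of the 2 lines were compared by their interaction. Of 51 members 1 passed, 1.96% against 3.61% of all genes tested (1.58% higher and 2.03% lower). At an unadjusted limma p under 0.05 there were 7, and the share of all genes at that threshold was not computed. The gene that passed was Kif21a, whose day difference was larger in CAG150 cells by 0.71 ± 0.18 (SE; limma adjusted p 0.0466), and the call was lost in 15 of 20 alternatives (highest adjusted p 0.109). Kif20b, Dync1h1 and Dctn3 passed between the days in CAG150 cells and not in HM1 cells, and their interactions of -0.40 ± 0.15 (limma adjusted p 0.208), 0.24 ± 0.14 (limma adjusted p 0.447) and 0.20 ± 0.12 (limma adjusted p 0.486) did not pass, so they are not shown to differ between the lines.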

How the data were processed

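Affymetrix arrays of 12 samples were used, 3 in each of 4 groups. The deposited table holds 1 intensity per probe set and array on a linear scale. The arrays appear to have been scaled to a common level: the mean of each array without its top and bottom 2% was 149.94 to 149.95, while the array medians were 19.17 to 25.94. The software and the settings that made these intensities are not given in the sources used here. Intensities were taken as deposited and turned into log2(intensity + 16), which understates the change of dim genes. Of 45101 probe sets, 34945 carry 1 gene symbol of the platform annotation, 932 carry several and were not used, and 64 are controls. Each gene was read from its brightest probe set, and genes were tested where the mean log2 value passed the 40th percentile, 4.803, an intensity of 11.91. A linear model of the 4 group means was fitted over 12280 genes with limma 3.58.1 in R 4.3.3 (8 residual and 4.456 prior degrees of freedom), with Benjamini-Hochberg adjustment over all genes and a threshold of 0.05. The fit was tested on simulated data. The number of arrays limits the precision.

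The motor genes follow from the rule on symbols. All may be named, and values on every array are given for up to 4 genes of a role list with the largest change among those that passed and for a fixed list of neuronal and mitotic motors. The members and all lists were chosen with earlier results of these data known. Klc2, Dynlt1a, Dynlt1b and Dynlt1c have no probe set of their symbol alone and were not analysed here. Other settings tried were median centring or quantile normalization, the 60th percentile or no filter, pseudocounts of 1 and 64, the mean over all probe sets of a gene, a wider axonal list, the replicate number as a block, and leaving out each array. Promoters are from the RefSeq table of build GRCm38.p6.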

Additional observations from a re-analysis of the deposited data

Results flagged for a closer look

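Kif21a, the kinesin-4 family member that rose between the days in both lines, had a day difference that was larger in CAG150 cells than in HM1 cells by 0.71 on the log2 scale (limma interaction, adjusted p 0.0466). It was singled out because the test of the difference between the lines passed. All 3 CAG150 arrays at day 6 lay above the 3 HM1 arrays at day 6, while the day 4 arrays of the lines overlapped. A second probe set of the gene gave 0.77 (adjusted p 0.0526 with each probe set fitted on its own, a fit chosen after seeing the data), and the interaction of the first was 0.0778 in that fit.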

How the results depend on the processing

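No motor gene that passed changed direction under the alternatives run. Of the genes that passed, 3 of 6 between the lines at day 6, 2 of 6 between the lines at day 4, 17 of 31 between the days in CAG150 cells, 13 of 20 between the days in HM1 cells and 0 of 1 in the interaction passed under each alternative, and 7, 10, 4, 13 and 0 others passed under at least 1. Between the lines at day 6, against 6, there were 10 with quantile normalization, 10 with the 60th percentile filter and 11 with a pseudocount of 64. At day 4 there were 10 with a pseudocount of 64, against 6. The interaction had 0 with median centring, with no filter, with a pseudocount of 1 and with the replicate block. Leaving out each array gave 3 to 9 genes between the lines at day 6 (3 without CAG150 day 6 replicate 1), 4 to 8 at day 4, 22 to 31 between the days in CAG150 cells, 16 to 21 in HM1 cells, and 0 to 1 in the interaction.

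The change between the days of the mitotic mean minus the axonal mean was -1.149 in CAG150 cells and -0.9549 in HM1 cells with the 60th percentile filter, -0.9393 and -0.7469 with a pseudocount of 64, -0.8077 and -0.6249 with the mean of probe sets, -0.8896 and -0.6639 with the wider list, and -0.7646 in HM1 cells with no filter, against -1.054 and -0.8506. Leaving out each array gave -1.126 to -1.014 in CAG150 cells and -0.8921 to -0.8028 in HM1 cells, -0.2216 to -0.108 between the lines at day 6, 0.02343 to 0.1015 at day 4, and -0.2753 to -0.1616 for the interaction. The cause of these shifts was not tested.

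Same-numbered samples of different groups had correlations of -0.133 to 0.122 in their deviations from the group means, and 2 of 18 were over 0.1. Samples of different groups with different numbers had -0.163 to 0.216, and 5 of 36 were over 0.1. The medians were 0.022 for the same number and -0.0089 for different numbers. Same-numbered samples did not stand out, but with so few arrays per group these correlations cannot decide whether the numbers pair the samples. With the replicate block 7 genes passed between the lines at day 6, 6 at day 4, 28 between the days in CAG150 cells and 20 in HM1 cells.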

Other observations

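Probe sets of the same motor gene did not always give the same difference between the lines. The brightest Kif5c probe set gave 0.25 at day 6 and 0.039 at day 4 for CAG150 minus HM1, while a dimmer Kif5c probe set gave 0.71 at day 6 (limma adjusted p 0.0362 with each probe set fitted on its own, a fit chosen after seeing the data) and 1.13 at day 4 (limma adjusted p 0.00443). The dimmer Kif3c probe set gave 0.42 at day 6 (limma adjusted p 0.0191) and 0.031 at day 4, against 0.11 and 0.0076 for the brighter one. A Kif5b probe set gave 0.17 at day 6 and 0.76 at day 4 (limma adjusted p 0.0484), against 0.17 and 0.53 for the brightest. A dimmer Kif3a probe set gave 0.61 at day 6 and 0.63 at day 4 (limma adjusted p 0.00224 and 0.00255), against 0.34 and 0.40 for the brightest, and a dimmer Dctn6 probe set gave 0.51 and 0.23 (limma adjusted p 0.00234 and 0.121), against 0.15 and 0.18. Of the 7 Kif1b probe sets, 1 gave -0.34 at day 6 and -0.46 at day 4 (limma adjusted p 0.0498 and 0.0159) and another 0.55 and 0.13 (limma adjusted p 0.00194 and 0.392).

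The 6 tested motor genes on chromosomes 8 and 11 were Kif1c, Kif3a, Dync1li2, Dynll2, Dctn6 and Kif18b. All had a positive difference of CAG150 minus HM1 at both days, with medians of 0.27 at day 6 and 0.20 at day 4. Of these only Dync1li2 passed. Among the other 45, 30 had a positive difference at day 6 and 25 at day 4, whether or not they passed, with medians of 0.050 and 0.030. The median of all genes tested was 0.24 at day 6 and 0.20 at day 4 on chromosome 8, and 0.23 and 0.17 on chromosome 11. The cause was not tested.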
